A study of Homo sapiens with 12 samples.

Results

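SUM159 cells that carried a hairpin against E4F1 and had received gemcitabine (shE4F1_GEM, 3 libraries) were compared with untreated SUM159 cells that carried a scramble hairpin (shCTRL_NT, 3 libraries). All genes of the authors' deposited table of this comparison were taken, 21847 of the 23375 genes that appear in any of the 4 deposited tables. SUM159 is an established triple-negative breast cancer line, and its polyadenylated RNA was read as single-end 50-base reads from stranded libraries. The 12 libraries form 4 groups of 3, and the other groups are the hairpin against E4F1 without treatment (shE4F1_NT) and the scramble hairpin with gemcitabine (shCTRL_GEM). Gemcitabine was given at 140 nM for 24 h in both treated groups, per the labels. All 4 groups carry a hairpin, and the labels name 1 hairpin per arm, so an effect of E4F1 loss and any other effect of that hairpin cannot be told apart. Nothing in the labels tells whether the 3 libraries of a group were grown as separate cultures; p-values therefore cover the spread among these libraries alone, which may be technical.

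The comparison joins 2 changes, and the question was where they add up, cancel or leave one of them. E4F1 is a zinc finger transcription factor that is known for its links to p53, to pyruvate oxidation and to the checkpoint kinase CHEK1. Gemcitabine is a deoxycytidine analogue. Inside the cell it is phosphorylated, it stops DNA chains and it blocks ribonucleotide reductase, so replication forks stall and the ATR checkpoint is engaged. Cells held in S phase go on transcribing replication genes under E2F factors, while the mitotic genes that follow in G2 are transcribed less. DNA damage can also switch on cytokine genes through NF-kB and antiviral genes through interferon signalling.

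In what follows, the knockdown change is shE4F1_NT against shCTRL_NT, the gemcitabine change is shCTRL_GEM against shCTRL_NT, and the combined change is shE4F1_GEM against shCTRL_NT. Each is a log2 fold change ± SE from one of the authors' deposited tables of DESeq2 results, which are the source of every such value below. A gene rose or fell when its deposited adjusted p (DESeq2) was under 0.05. These 3 tables share the shCTRL_NT libraries, so counts of genes by how the changes combine are descriptions. The fourth table, shE4F1_GEM against shCTRL_GEM, gives the knockdown change under gemcitabine (41% of its genes called). That change minus the untreated knockdown change uses no library in common and is the departure from the sum of the single changes. The departure was tested with a two-sided normal test, Benjamini-Hochberg adjusted over 20923 genes. Levels in the 4 groups, where given, are mean normalized counts implied by the deposited mean and fold changes, and values of single libraries were not used here.

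E4F1 itself (ENSG00000167967, chr16:2223566-2235742, plus strand, GRCh38) fell by 1.18 ± 0.27 in the combined table (adjusted p = 8.55e-05, DESeq2). Its implied level was 443 in shCTRL_NT, 223 in shE4F1_NT, 363 in shCTRL_GEM and 196 in shE4F1_GEM. Both knockdown groups were thus below both control groups, and the knockdown change was -0.99 ± 0.26 without the drug and -0.91 ± 0.16 with it in the deposited tables. Of the 10 luminal markers checked, 7 were listed and 5 had a mean of at least 50, GATA3 at 445 and FOXA1 at 61.1 among them. ESR1 had a mean of only 11.8 normalized counts, and the mesenchymal marker VIM had 65232. Of 5 blood cell markers 2 were listed, PTPRC at a mean of 49.6 and CD14 at 6.91. Among 6 endothelial markers 4 were listed, and KDR and PECAM1 rose by 1.61 ± 0.20 and 1.20 ± 0.30 while VWF had a mean of 3.76 and TEK of 6.53. The median SE in the combined table was 0.249, from 0.521 for genes with a mean under 10 to 0.162 for genes with a mean of at least 1000.

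Of 19724 genes with an adjusted p, 6345 changed in the combined comparison, 3126 higher (15.8%) and 3219 lower (16.3%), together 32.2%. With the changes centred on their median 3540 were higher and 2812 lower, and among genes with a mean of at least 50 the counts were 2447 and 2977, so which direction held more calls depended on the setting. Of the 6345 genes, 2371 changed by at least 1 on the log2 scale, 1422 higher and 949 lower. The knockdown alone changed 36.7% of the genes tested in its table and gemcitabine alone 28%. The combined table therefore held fewer calls than the knockdown table, and the median combined change over all genes tested was -0.01.

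Among 18849 genes with an adjusted p in all 3 tables, the single changes added up in 1305 (6.92%), meaning that both single changes and the combined change were called in one direction, 556 higher and 749 lower. This name rests on the calls alone. The median sizes in these genes were 0.81 with the knockdown, 0.70 with gemcitabine and 0.98 combined. In some, such as TRAF1, the combined change was smaller than 1 of the single changes. The single changes cancelled in 718 (3.81%), where they were called in opposite directions and the combined change was not called. Of these, 407 were lower with the knockdown and higher with the drug, and 311 were the reverse. Opposite changes left the direction of the knockdown in 347 genes (1.84%) and that of gemcitabine in 45 (0.239%). Where only the knockdown was called, it was left in 3128 genes (16.6%) and not left in 1422 (7.54%). Where only gemcitabine was called, it was left in 799 (4.24%) and not left in 2049 (10.9%). A further 566 genes (3%) were called only in the combined table, 62 (0.329%) had both single changes called in one direction but no combined call, 6 (0.0318%) took other forms and 8402 (44.6%) were called in none. A combined change that is not called is not shown to be absent: its 95% interval lay within 1.5-fold of no change for 386 of the 718 cancelling genes, 53.8%, against 3947 of all 19724 genes tested. The 2 shares are not like for like, since cancelling genes were chosen for having no combined call. Their median mean count was 1125, against 39.7 for genes called in none. The median combined change of the 718 was 0.21 in size.

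With rises and falls pooled, the knockdown change was left more often than the gemcitabine change at every size of the single change. Of genes called with the knockdown alone 68.7% kept that direction in the combined table, against 28.0% of genes called with gemcitabine alone. For single changes under 0.5 the shares were 40.8% and 16.1%, from 0.5 to 1 they were 68.4% and 27.6%, from 1 to 2 they were 80.2% and 33.1%, and from 2 up they were 97.5% and 56.8%. Falls of 2 or more went the other way, with 58 of 61 left for the knockdown and 9 of 9 for gemcitabine. The combined change had a median of 0.83 times the knockdown change and 0.41 times the gemcitabine change. Because these tables share their control libraries, the same contrast was also taken between libraries that do not overlap, for genes called in the first table with a mean of at least 50. The knockdown change under gemcitabine was a median of 0.805 times the untreated one and had the same sign in 93.9% of 6229 genes. The gemcitabine change in shE4F1 cells, taken as the combined minus the knockdown change, was a median of 0.405 times that in shCTRL cells and had the same sign in 88.3% of 4517 genes. Each gene set was chosen on the first of its 2 changes, which lowers both ratios.

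**Figure D1:**
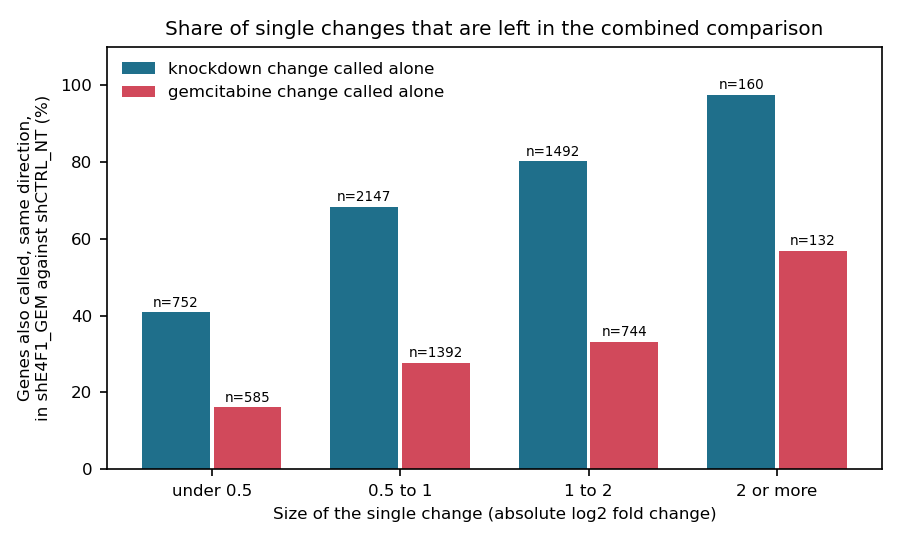
Share of genes (percent, vertical axis from 0) whose single change was left in the combined comparison, by the size of the single change (log2, horizontal axis), for genes called with the knockdown alone and with gemcitabine alone. The knockdown share climbs from 40.8% to 97.5% and lies above the gemcitabine share, 16.1% to 56.8%, in each size class with rises and falls pooled.

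Of the 10 largest combined rises, 5 added up, 2 were knockdown changes left and 2 were gemcitabine changes left, while AC144831.1 had no adjusted p with gemcitabine. TRAF1, an adaptor of TNF receptors, had implied levels of 19.3 in shCTRL_NT, 43.8 in shE4F1_NT, 1527 in shCTRL_GEM and 720 in shE4F1_GEM. It rose 37.2-fold (log2 5.22 ± 0.26, adjusted p = 3.67e-85, DESeq2), less than with gemcitabine alone (6.30 ± 0.25). IL34, a cytokine that binds the CSF1 receptor, had 6.89, 54.2, 48.6 and 184 in the same order. It rose by 4.74 ± 0.37 against single changes of 2.97 ± 0.44 and 2.82 ± 0.39, so that the doubly changed group was the highest of the 4. GBP4, an interferon-induced GTPase, rose by 3.49, above both of its single changes. HMGA2, a chromatin protein of embryonic tissue (chr12:65824131-65966295), rose 13.7-fold and had levels of 73.2, 1523, 86.6 and 1003. Both shE4F1 groups were thus high whatever the treatment, and gemcitabine alone gave 0.24 ± 0.25. RNF152, a ubiquitin ligase, rose 10.6-fold in the same way. SLC2A14, a glucose transporter gene, rose by 3.69, but it lies beside its close copy SLC2A3 and reads of the 2 genes can be hard to assign.

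Of the 10 largest falls, 6 were knockdown changes left and 4 added up. MEST, an imprinted gene (chr7:130486171-130506465), had levels of 825 in shCTRL_NT, 76.6 in shE4F1_NT, 704 in shCTRL_GEM and 78.6 in shE4F1_GEM. It fell by 3.39 ± 0.20 (adjusted p = 3.53e-60, DESeq2), with a departure from the sum of 0.25 ± 0.25. CRIM1, a membrane protein that binds BMPs, fell by 3.38 ± 0.18 against single changes of -2.47 ± 0.19 and -0.75 ± 0.15, and its 4 levels were 19972, 3610, 11890 and 1912. IL1RL1, the IL-33 receptor, changed by -3.02, PHC2, a Polycomb protein, by -2.79 and RPL22L1, a ribosomal protein paralog, by -2.68, and in all 3 both single changes were falls. S100P, RAB39B, ADAM12, COPE and MAPKAPK3 changed by -2.68 to -2.97 with no call for gemcitabine alone.

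**Figure D2:**
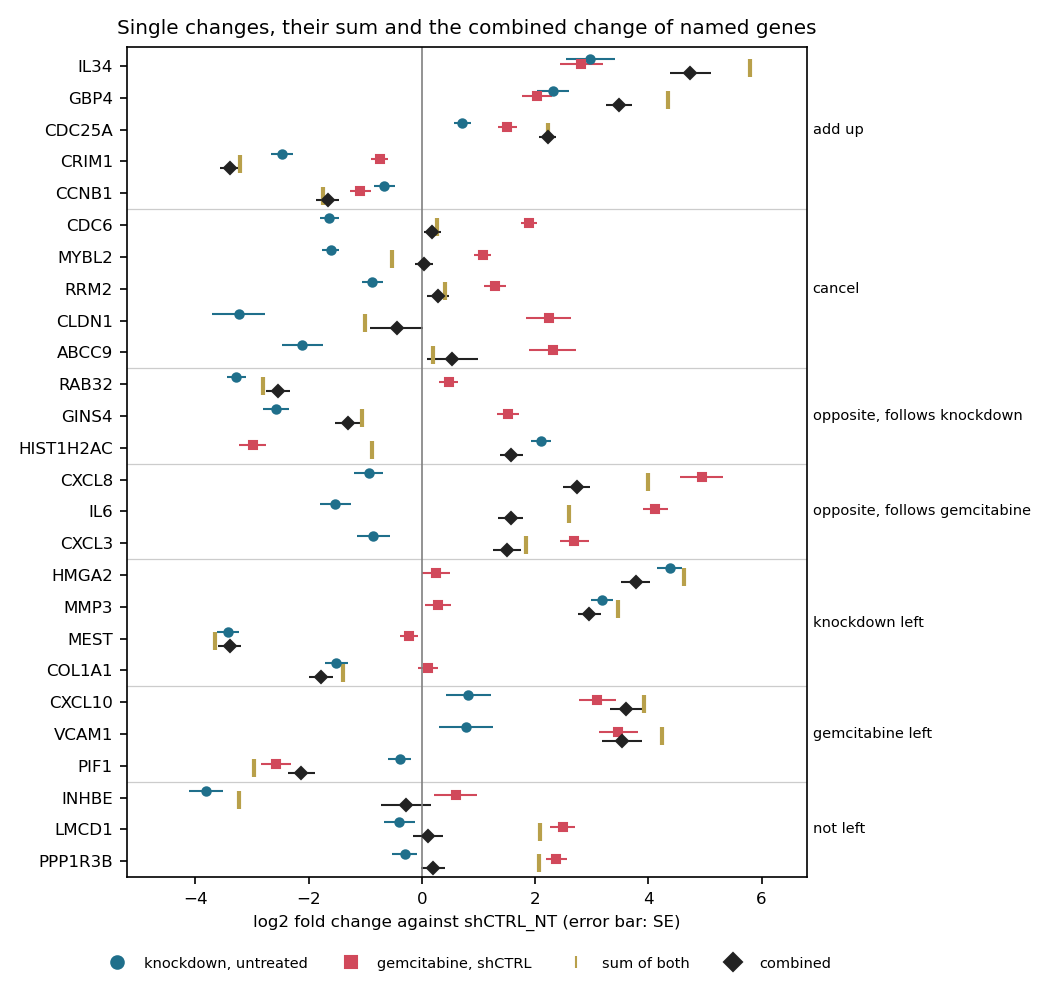
Log2 fold changes (horizontal axis, bars ± SE) of named genes with the knockdown, with gemcitabine and combined, from the authors' deposited tables. Gold ticks mark the sum of the single changes. Of the genes plotted, IL34 at 4.74 has the highest combined change and MEST at -3.39 the lowest, and the cancelling genes such as CDC6 (0.18) have combined changes near 0 between opposite single changes.

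In DNA replication genes the 2 changes often cancelled. The list of 43 origin, helicase, polymerase and clamp genes had a median of -0.87 with the knockdown, 0.74 with gemcitabine and -0.04 combined, against -0.02, -0.04 and -0.01 over all genes tested. With the knockdown 36 of the 43 fell (19.3% of all genes) and with gemcitabine 28 rose (14.5%), and 21 cancelled (3.81%). Combined, 2 rose (15.8%) and 11 fell (16.3%). CDC6, which loads the helicase at origins, had levels of 2527 in shCTRL_NT, 815 in shE4F1_NT, 9378 in shCTRL_GEM and 2865 in shE4F1_GEM. The untreated control and the doubly changed group were thus close, and the combined change was 0.18 ± 0.15 against -1.63 ± 0.17 and 1.89 ± 0.14. Of the 6 subunits of the MCM2 to MCM7 helicase, 5 cancelled, with combined changes from -0.36 (MCM7) to 0.46 (MCM4), and MCM6 (-0.41 ± 0.19) had a called knockdown change only. MCM10, POLA2, POLD3, LIG1, RFC5 and PRIM1 cancelled as well. Opposite single changes did not cancel in 5 members: ORC1 and RPA2 rose by 0.68 and 0.44, and ORC6, RFC3 and GINS4 changed by -0.52, -0.49 and -1.31. Of all genes, such changes followed gemcitabine in 0.239% and the knockdown in 1.84%. The knockdown change of the list under gemcitabine had a median of -0.69, and 37 of 43 fell there (20.8% of all genes), so that the list was lower with shE4F1 in both backgrounds. Departures from the sum were called in 6 of the 43, all positive (2.81% of all genes): RFC2, CDC45, GINS2, RFC4, CDT1 and PRIM1.

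Promoter windows of 250 bases before to 50 after the start (RefSeq, GRCh38.p14) were searched on both strands for fixed words, and 11870 of the genes tested had a window matched by gene ID. An E2F word (TTTCCCGC, TTTGGCGC or TTTCGCGC) lay in 45.9% of the 37 windows of the replication list, in 2.79% of all 27305 windows and in 4.43% of those of tested genes. Among cancelling genes that were lower with the knockdown, which include members of the replication list, it lay in 9.63% of 301 windows. Among those that were higher it lay in 2.92% of 240. The share was not highest in cancelling genes: opposite changes that followed gemcitabine had it in 27.0% of 37 windows, and those that followed the knockdown in 5.74% of 244. The stretches below are from 4 replication genes that cancelled, on the gene's strand, with the word or its reverse complement in capitals.
GINS2 (chr16:85688970-85688993, minus): tcgccgtgGCGGGAAAacggcggc
MCM3 (chr6:52284901-52284924, minus): atggtacgTTTCCCGCcaccgcgg
MCM7 (chr7:100101569-100101592, minus): ctcggaccGCGGGAAAcccggcgc
POLA2 (chr11:65261901-65261924, plus): gctcccggTTTCGCGCatgcgtgc

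**Figure D3:**
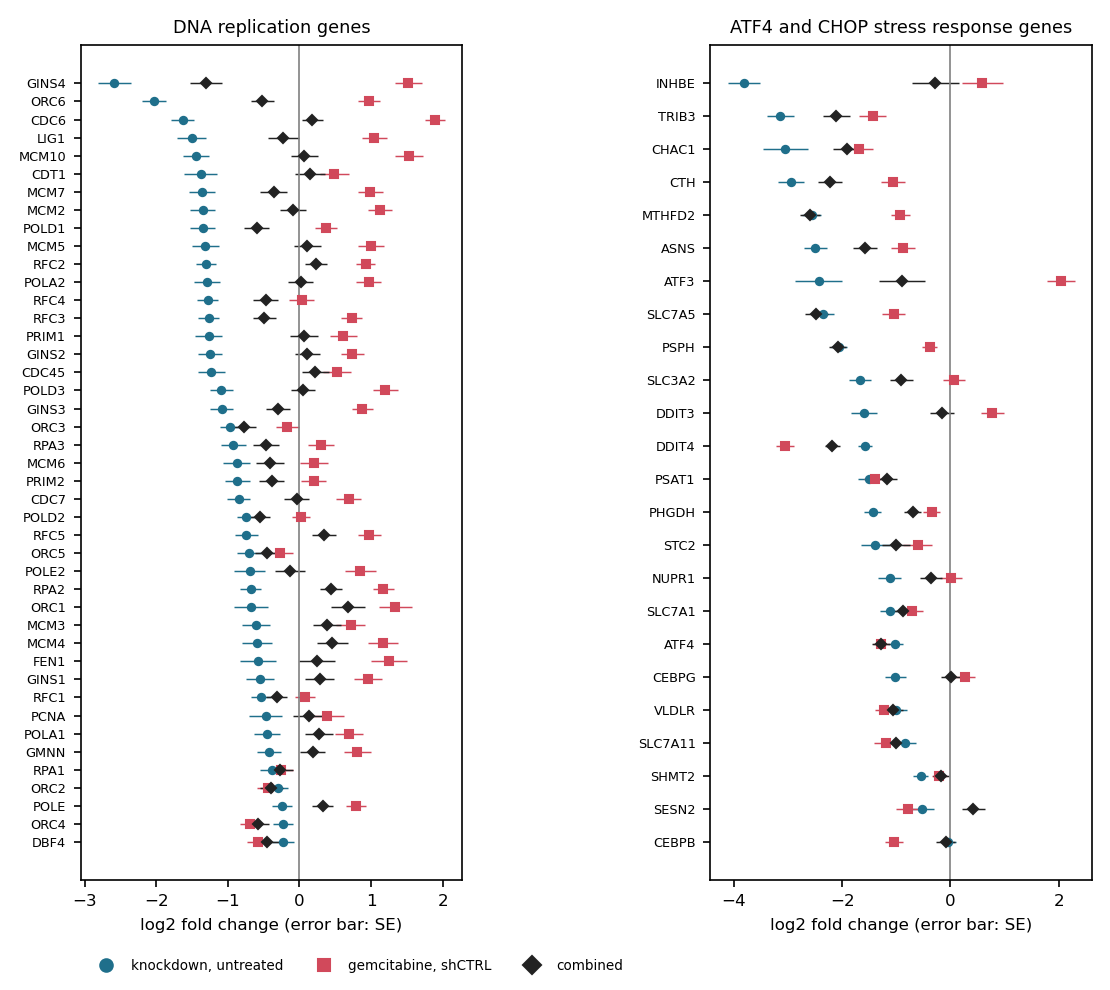
Log2 fold changes of the members of the DNA replication list and the ATF4 and CHOP list with the knockdown, with gemcitabine and combined, from the authors' deposited tables. Replication genes lie below 0 with the knockdown (median -0.87), above 0 with gemcitabine (0.74) and around 0 combined (-0.04), whereas the stress genes are low in all 3 (-1.54, -0.83 and -1.0).

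Repair and checkpoint genes were less uniform. Of 30 homologous recombination and Fanconi genes, 21 fell with the knockdown (19.3% of all genes) and 13 rose with gemcitabine (14.5%). The changes cancelled in 8 (3.81% of all genes), BRCA1 (-0.06 ± 0.17), BRCA2 (0.32 ± 0.19) and XRCC3 (0.22 ± 0.18) among them. The list had a combined median of -0.11, with 2 rises and 5 falls (15.8% and 16.3% of all genes). BRIP1, a helicase that partners BRCA1, rose by 0.80 ± 0.17 with no call for the knockdown. Of 24 ATR and fork checkpoint genes 3 rose and 3 fell combined (15.8% and 16.3% of all genes), with a median of -0.13. CDC25A, the phosphatase that activates CDK2, was higher with each change, at 723 in shCTRL_NT, 1185 in shE4F1_NT, 2056 in shCTRL_GEM and 3373 in shE4F1_GEM, and its combined change of 2.22 ± 0.15 equalled the sum of the single ones (2.22). TIMELESS, HUS1 and CDC25C changed by -1.23, -1.06 and -0.54 and were not called with gemcitabine alone. CHEK1, a reported E4F1 target, was at -0.26 ± 0.17 and ATR at 0.16 ± 0.16, neither called.

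Most mitotic genes fell in the doubly changed cells. Of 32 G2/M genes 23 fell combined (16.3% of all genes), 27 fell with the knockdown (19.3%), and with gemcitabine 12 fell (13.5%) and 2 rose (14.5%). The combined median was -0.75 against -0.71 with the knockdown and -0.27 with gemcitabine. In 10 the falls added up (6.92% of all genes in either direction) and in 11 the knockdown was left (16.6%). CCNB1, the mitotic cyclin (chr5:69167010-69178245), had levels of 7370 in shCTRL_NT, 4641 in shE4F1_NT, 3470 in shCTRL_GEM and 2327 in shE4F1_GEM. The order of these levels matches a combined fall of 1.66 ± 0.20 against a sum of -1.75. PLK1, a mitotic kinase, had 2347, 1492, 845 and 858, so the drug-treated groups were nearly level and the departure was 0.71 ± 0.20 (adjusted p = 0.00994, normal test). CENPA, BUB1, CCNA2, CENPF, TOP2A and AURKA changed by -0.94 to -1.61 and also fell with each single change. MYBL2 and KIF2C cancelled, at 0.04 ± 0.16 and -0.34 ± 0.18. The word TTTGAA or TTCGAA, known as the CHR element of G2/M promoters, lay in 73.1% of the 26 windows of this list and in 16.6% of all windows. It stood close to the start in these 3 genes whose falls added up (RefSeq, GRCh38.p14, word in capitals).
CENPA (chr2:26786030-26786051, plus): gcgagcgaTTTGAAcgcgagcg
PLK1 (chr16:23678852-23678873, plus): gcgccgcgTTTGAAttcgggga
PRC1 (chr15:90994542-90994563, minus): tggcgcggTTTGAAattttgcg

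Cytokine and NF-kB genes stayed up in the doubly changed cells, yet below their level with gemcitabine alone. Of 24 genes tested combined, 18 rose and 1 fell (15.8% and 16.3% of all genes), with a median of 1.24. With the drug alone 24 of 27 rose (14.5%), and with the knockdown alone 6 of 21 rose and 10 fell (17.5% and 19.3% of all genes). The gemcitabine median was 1.76 over the genes tested combined. Members without an adjusted p in a table are not counted there, and 17 members had a mean of at least 50. Among all genes lacking an adjusted p in 1 or more tables, gemcitabine calls were 269 higher and 0 lower. Such members can thus tilt the drug count towards rises. Under gemcitabine the knockdown lowered 21 of 28 (20.8% of all genes) and raised 4 (20.3%). CXCL8, a neutrophil chemokine (chr4:73740506-73743716), had levels of 528 in shCTRL_NT, 275 in shE4F1_NT, 16216 in shCTRL_GEM and 3501 in shE4F1_GEM. It rose 6.64-fold combined (2.73 ± 0.24) against 4.94 ± 0.38 with gemcitabine alone. For this gene the tables do not close: gemcitabine plus the knockdown under gemcitabine (-3.31 ± 0.33) falls short of the combined change. The sum of its single changes was 4.00 against 2.73 combined, a smaller gap than its departure of -2.37 ± 0.42. Nor do the tables close for some other genes, such as ABCC9 (2.31 and -2.62 against 0.54 combined), AREG (0.61 and -3.09 against -1.57) and GDF15 (0.50 and -2.46 against -1.37). Implied levels and departures of such genes are less certain. IL6 had 157, 54.3, 2730 and 464, and TNFAIP3, an inhibitor of NF-kB signalling, had 668, 1770, 11313 and 4932. Both were thus highest with gemcitabine alone, and their departures were -1.16 ± 0.31 and -2.70 ± 0.23 (adjusted p = 0.00802 and 1.58e-27, normal test). CXCL2, CXCL3 and IL1A followed gemcitabine as IL6 and CXCL8 did, with combined rises of 0.60, 1.5 and 0.71. CCL20 fell by 1.75 ± 0.22, the direction of the knockdown, although gemcitabine alone raised it by 1.26. MMP3, a secreted protease, rose by 2.96 with no call for the drug. CXCL10 and VCAM1, a chemokine and a leukocyte adhesion molecule outside this list, rose 12.2-fold and 11.6-fold and were near their gemcitabine levels, at 225 and 115 against 158 and 110. Of 24 departures tested in the list, 10 were negative (2.63% of all genes).

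One of 4 NF-kB words of 10 bases, searched on both strands, lay in 41.2% of the 17 windows of the cytokine list and in 0.45% of all windows. The stretches from 2 genes that followed gemcitabine and 1 whose rises added up are shown (RefSeq, GRCh38.p14, word in capitals), and the first 2 have the same letters.
CXCL2 (chr4:74099256-74099281, minus): ggagctccGGGAATTTCCctggcccg
CXCL3 (chr4:74038751-74038776, minus): ggagctccGGGAATTTCCctggcccg
TNFAIP3 (chr6:137867196-137867221, plus): agtcccgtGGAAATCCCCgggcctac

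Interferon-response genes rose more often than they fell. Of 31, 19 rose combined (15.8% of all genes) and 1 (IFIT5) fell (16.3%). With the knockdown 14 rose (17.5%) and 3 fell (19.3%), and with gemcitabine 15 rose (14.5%). The medians were 0.78 combined, 0.63 with the knockdown and 0.61 with gemcitabine. In 8 the rises added up (6.92% of all genes in either direction). These include the RNA sensors DDX58 (1.28 ± 0.17) and IFIH1 (1.85 ± 0.21) and the 2-5A synthetase OAS2 (2.75 ± 0.31). OAS2 had levels of 18.6 in shCTRL_NT, 83.1 in shE4F1_NT, 60.9 in shCTRL_GEM and 125 in shE4F1_GEM. The doubly changed group was the highest, and the combined change was below the sum of 3.88. IFIH1 departed by -0.83 ± 0.26 (adjusted p = 0.0327, normal test). OAS3, IRF1, MX1, MX2, RSAD2 and USP18 were called with gemcitabine and combined, and IFI44L, IFI6 and HERC6 with the knockdown and combined. A word of the interferon-stimulated response element (TTTC, any NN, TTTC) lay in 65.2% of 23 windows of the list and in 3.65% of all. The stretches of 2 genes whose rises added up are given (RefSeq, GRCh38.p14, word or reverse complement in capitals).
IFI44 (chr1:78649763-78649788, plus): acactgagTTTCAGTTTCctttctct
IFIH1 (chr2:162318688-162318713, minus): agagaatcGAAACAGAAAccaaagtc

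Genes of the ATF4 and CHOP response, which supply amino acids and answer protein stress, fell with each change, and the combined fall was smaller than the sum. Of 24, 23 fell with the knockdown (19.3% of all genes), 15 with gemcitabine (13.5%) and 16 combined (16.3%), with medians of -1.54, -0.83 and -1.0. Departures were positive in 20 of the 24, against 2.81% of all genes tested for departures. The gemcitabine change of the list had a median of -0.83 in shCTRL cells and, as a difference of 2 tables, 0.55 in shE4F1 cells. CHAC1, a glutathione-degrading enzyme (chr15:40952962-40956519), had levels of 1122 in shCTRL_NT, 135 in shE4F1_NT, 349 in shCTRL_GEM and 298 in shE4F1_GEM. It was lowest with the knockdown alone, and its departure was 2.88 ± 0.45 (adjusted p = 6.06e-08, normal test). TRIB3, a pseudokinase induced by ATF4, had 8071, 914, 2994 and 1871 in the same order. ASNS, asparagine synthetase, had 15076, 2678, 8239 and 5053, again lowest with the knockdown alone. ATF4 itself had 8928, 4410, 3671 and 3671, and MTHFD2, a mitochondrial folate enzyme, had 15474, 2627, 8163 and 2573. In MTHFD2 the shE4F1 groups were alike, with a combined fall of 2.59 ± 0.18. INHBE, an activin subunit, fell by 3.82 ± 0.30 with the knockdown and was at -0.27 ± 0.44 combined, with levels of 570, 40.4, 860 and 471. SESN2, a stress-induced inhibitor of mTORC1, was lower with each single change and at 0.43 ± 0.22 combined, not called. DDIT3 and ATF3 cancelled, at -0.16 ± 0.22 and -0.89 ± 0.43. The word TGATGCAA or TGATGAAA lay in 15.8% of 19 windows of the list and in 2.00% of all, among them those of CHAC1 and ASNS (RefSeq, GRCh38.p14, word or reverse complement in capitals).
ASNS (chr7:97872461-97872484, minus): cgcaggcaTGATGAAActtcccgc
CHAC1 (chr15:40953254-40953277, plus): ccctgccgTTGCATCActcctgcc

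DDIT4, an mTORC1 inhibitor (chr10:72273920-72276036), had levels of 48945 in shCTRL_NT, 16349 in shE4F1_NT, 5878 in shCTRL_GEM and 10816 in shE4F1_GEM. All 3 changed groups were below the control, and under gemcitabine the knockdown raised it by 0.96 ± 0.13. RP11-442H21.2, annotated as antisense to it (chr10:72274915-72275980), had 773, 212, 83.7 and 131 in the same order. The 2 genes overlap and the strand setting of the counting is not given in the sources used here, so their reads cannot be told apart.

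Replication-dependent histone genes were split. With the knockdown 13 of 28 rose (17.5% of all genes) and with gemcitabine 16 of 28 fell (13.5%). Combined, 12 of 26 rose (15.8%) and 3 fell (16.3%). The medians over the 26 tested combined were 0.78, -1.06 and 0.25. Of the 26, opposite changes left the knockdown in 7 (1.84% of all genes) and the knockdown was left in 5 (16.6%). A gemcitabine change was not left in 7 (10.9%), and 3 were called in none of the 3 tables (44.6%). HIST1H2AC (chr6:26124145-26139116) had levels of 405 in shCTRL_NT, 1741 in shE4F1_NT, 51.1 in shCTRL_GEM and 1210 in shE4F1_GEM. It rose by 1.58 ± 0.20 where the sum of the single changes was -0.88, a departure of 2.64 ± 0.26 (adjusted p = 1.23e-20, normal test). HIST2H2BE had 96.3, 358, 29.5 and 239, the same order of groups. Most histone transcripts lack a poly(A) tail, so these libraries show the polyadenylated share, and 13 of the 26 had a mean of at least 50.

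Of the 13 mitochondrially encoded mRNAs 1 was called in the combined comparison (32.2% of all genes). With gemcitabine 11 fell (13.5% of all genes) and with the knockdown 5 rose (17.5%), with medians of -0.66 and 0.32, and the combined median was 0.05. MT-CYB, the cytochrome b subunit, had 109108, 153862, 57953 and 107892, and 3 others (MT-ND5, MT-CO1 and MT-ATP6) cancelled too. Of all genes 3.81% cancelled. Under gemcitabine the knockdown raised 12 of the 13 (20.3% of all genes). The 1 called was MT-ATP8, at 0.37 ± 0.15. MT-ND1, at 0.35 ± 0.15, was called as well when the changes were centred on their median.

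**Figure D4:**
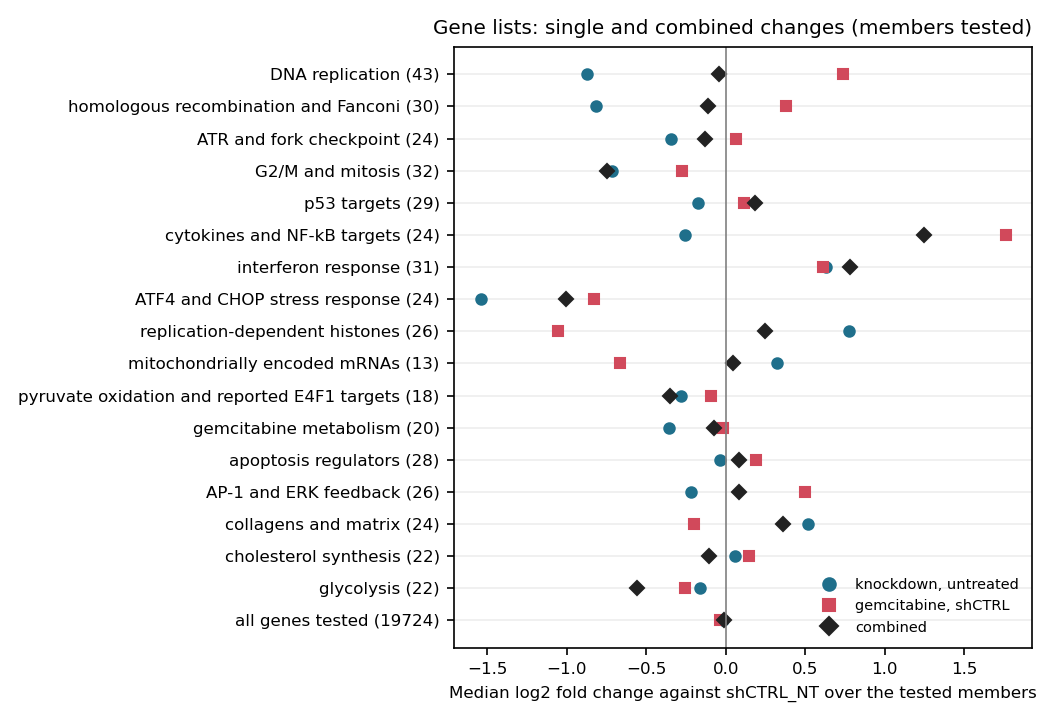
Median log2 fold change (horizontal axis) of each gene list with the knockdown, with gemcitabine and combined, beside all genes tested, from the authors' deposited tables. Combined medians lie near 0 for DNA replication (-0.04) and mitochondrially encoded mRNAs (0.05), above 0 for cytokines (1.24) and interferon genes (0.78), and below 0 for the ATF4 and CHOP list (-1.0) and G2/M genes (-0.75).

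Among 20 genes that transport, activate or degrade gemcitabine or supply nucleotides, 4 rose and 3 fell combined, near the shares of all genes (15.8% and 16.3%). The changes cancelled in 5 (3.81% of all genes). Among them were RRM1 (-0.22 ± 0.20) and RRM2 (0.28 ± 0.19), the subunits of ribonucleotide reductase, TK1 (0.03 ± 0.21) and TYMS (-0.34 ± 0.22). RRM2 had levels of 6235 in shCTRL_NT, 3397 in shE4F1_NT, 15260 in shCTRL_GEM and 7594 in shE4F1_GEM. DCTD, which deaminates dCMP, fell by 1.32 ± 0.15, and SAMHD1, which degrades dNTPs, and ABCC5, an exporter, rose by 1.49 ± 0.18 and 1.37 ± 0.17, none of them called with the drug alone. DCK, the activating kinase, was at 0.21 ± 0.19, CDA, the deaminase, at 0.09 ± 0.21 and the importer SLC29A1 at -0.23 ± 0.17, none called combined.

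Of 18 genes of pyruvate oxidation and reported E4F1 targets, 2 rose (15.8% of all genes) and 7 fell (16.3%), with a median of -0.35. DLAT and PDK1 changed by -0.73 and -1.01 with both changes adding up, and PDHA1 and PDK2 by -1.11 and -0.93 with the knockdown left. MPC1 (-0.02 ± 0.17), DLD (0.04 ± 0.19) and PDPR (0.02 ± 0.15) were called in none of the 3 tables. Glycolytic genes were lower combined, 13 of 22 falling (16.3% of all genes) and 2 rising (15.8%) with a median of -0.56. PKM, ALDOA and TPI1 changed by -0.88, -0.85 and -0.72 and were called only in the combined table. Of 22 cholesterol synthesis genes, 16 were called in none of the 3 tables (44.6% of all genes).

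Of 29 p53 targets 6 rose and 5 fell, near the shares of all genes (15.8% and 16.3%), with a median of 0.18. FAS and BTG2 rose by 1.40 and 2.48 with both changes adding up. CDKN1A, the CDK inhibitor p21, had 1513 in shCTRL_NT, 1306 in shE4F1_NT, 3888 in shCTRL_GEM and 1786 in shE4F1_GEM, so its rise with the drug was not left, and it departed by -0.92 ± 0.22 (adjusted p = 0.00144, normal test). MDM2, GADD45A and GDF15 changed by -0.74, -1.13 and -1.37. Of 28 apoptosis regulators 7 rose and 6 fell (15.8% and 16.3% of all genes). The BH3-only genes BMF and BCL2L11 rose by 1.96 and 1.29, and MCL1 and BCL2L1, which protect cells from apoptosis, changed by -0.95 and -0.69. PMAIP1, another BH3-only gene, cancelled at 0.22 ± 0.22. Of 26 AP-1 and ERK feedback genes 6 rose and 5 fell, near those shares too. HBEGF, an EGF receptor ligand, had 388, 144, 2318 and 300, and EGR1 (-0.31 ± 0.48) and FOS (0.41 ± 0.37) rose with gemcitabine and were not called combined. The SEs of AREG, GDF15 and ATF3 were 0.43 to 0.50 in the 2 tables of shE4F1 against shCTRL_NT and 0.16 to 0.17 in the table without shCTRL_NT. In the gemcitabine table, also against shCTRL_NT, they were 0.42, 0.41 and 0.26. SEs of at least 0.4 in both tables of shE4F1 against shCTRL_NT were found in 105 of 12866 genes with a mean of at least 50. In 70 of these the SE in the table without shCTRL_NT was at most 0.5 times the combined one. Their part in these results was not tested.

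Among 24 collagen and matrix genes 9 rose and 5 fell combined (15.8% and 16.3% of all genes). FN1, fibronectin, rose by 1.69 ± 0.20 and COL6A1 by 1.18 with the knockdown left, and COL1A1, COL4A1 and COL5A2 changed by -1.78, -0.83 and -0.67. THBS1 fell by 0.52 ± 0.15, following gemcitabine. COL3A1 had levels of 41.1 in shCTRL_NT, 81.3 in shE4F1_NT, 470 in shCTRL_GEM and 83.7 in shE4F1_GEM. Gemcitabine raised it in shCTRL cells, while the 2 shE4F1 groups were alike, and it departed by -3.48 ± 0.36 (adjusted p = 4e-19, normal test).

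Departures from the sum of the single changes were called in 1137 of 20923 genes (5.43%), 587 positive and 550 negative. When the departure was instead the combined minus both single changes, with the larger SE of 3 tables, 132 genes were called. The most negative among genes with a mean of at least 50 was INHBA, an activin subunit (chr7:41667168-41705834), with levels of 6.17, 32.9, 236 and 104 and a departure of -3.97 ± 0.50. IL7R, a cytokine receptor, had 358, 371, 4242 and 638 and a departure of -2.96 ± 0.33. LMCD1, PPP1R3B and the antisense gene RP11-525K10.3 rose by 2.37 to 2.80 with gemcitabine alone and by no called amount combined, with departures from -1.91 to -2.05. They were picked as the largest gemcitabine changes with no knockdown or combined call, so negative departures follow from that choice. Of the 1305 genes that added up, 230 departed upward and 211 downward, counts that use the same knockdown values as the class.

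Genes called only in the combined table include CLGN, a chaperone, at 238 in shCTRL_NT, 305 in shE4F1_NT, 276 in shCTRL_GEM and 643 in shE4F1_GEM (log2 1.43 ± 0.26). Its departure of 0.94 ± 0.31 missed the threshold (adjusted p = 0.0508, normal test). CA9, a carbonic anhydrase, fell by 1.34 ± 0.48 with single changes of -0.86 and -0.78 that were not called. Departures were positive in 4 and negative in 1 of the 565 such genes tested for them.

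**Figure D5:**
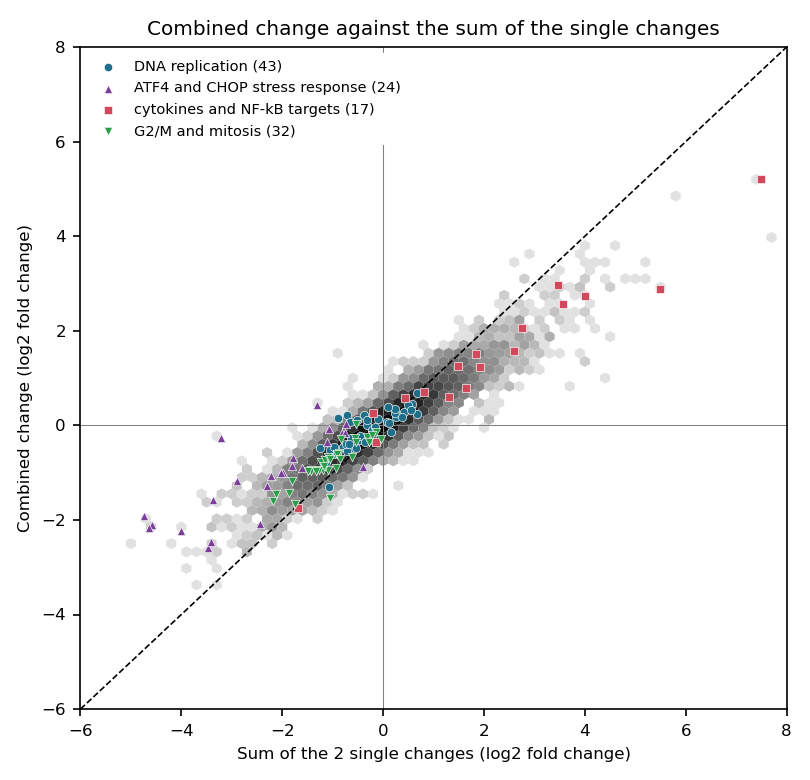
Combined log2 fold change (vertical axis) against the sum of the 2 single changes (horizontal axis) over genes with a mean normalised count of at least 50 in the combined table, from the authors' deposited tables, with the line of equal values; darker cells hold more genes (log scale), and the legend gives the members of each list that reach that mean. INHBA (sum 7.67, combined 4.07) and TRAF1 (7.48 and 5.22) lie below the line, CHAC1 (-4.74 and -1.91) above it, and the sum counts the shCTRL_NT libraries in both single changes.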

How the data were processed

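Polyadenylated RNA of SUM159 cells was sequenced in 12 libraries, 3 in each of 4 groups. Per the submitters' processing notes, the authors worked with the genome build GRCh38.p7, the aligners TopHat2 2.1.1 and Bowtie2 2.2.9, the counter HTSeq 0.9.0, R 3.4.0 and DESeq2 1.14.1, besides FastQC and bcl2fastq. Not given in the sources used here are the annotation release, strand setting, filters and design formula. Per the file headers, the authors deposited 4 DESeq2 tables with a mean normalized count (a signal with no fixed total), a log2 fold change, its SE, a score (the Wald statistic), a p-value and an adjusted p-value. A deposited count table has 12 sample columns whose names match no label. They were not used, so depth per library is unknown here and the SE and the mean give the precision.

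Here the tables were joined by gene ID with pandas 2.3.3 and numpy 2.4.6 in Python 3.11.15. Genes were classed by the calls of 3 tables (adjusted p under 0.05), and 2123 genes of the combined table with no adjusted p were not tested. Departures were tested with scipy 1.17.1 (two-sided normal test, SE from summed variances, Benjamini-Hochberg) after the script had been tested on simulated data. Gemcitabine plus the knockdown under gemcitabine equals the combined change within 0.1 for 93.4% of 20913 genes and for 99.4% of 6755 with a mean of at least 1000. No gene with a mean under 10 had a combined change beyond 2.71 in size, so changes of such genes may be understated.

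Named genes (111) are E4F1, the largest combined rises and falls, the largest of each class and departure with a mean of at least 50, and the leading members of each of 21 lists, and other list members are named from within their list. The members and lists were chosen with earlier results of these data known. Gene positions are from GENCODE release 29 (GRCh38) and promoter stretches from RefSeq (GRCh38.p14), matched for 72 of the 111. Some named genes are not reported here. Other call thresholds, a minimum mean, centring, the steps through shCTRL_GEM and another form of the departure were tried.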

Additional observations from a re-analysis of the deposited data

Results flagged for a closer look

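Results are listed here because the knockdown change differed between gemcitabine-treated and untreated cells by a test of the difference itself (two-sided normal test on the authors' deposited log2 changes and SEs, Benjamini-Hochberg over 20923 genes). It did so in 1137 genes. Differences are treated minus untreated, on the log2 scale. Among stress genes they were 2.88 for CHAC1, 2.92 for INHBE, 2.54 for DDIT4, 1.81 for SESN2 and 0.89 for MTHFD2. RP11-442H21.2, which overlaps DDIT4 and whose reads cannot be told apart from those of DDIT4, gave 2.60. Histone genes gave 2.64 (HIST1H2AC) and 1.75 (HIST3H2A), and mitochondrial mRNAs 0.66 (MT-ATP8) and 0.60 (MT-ND4). Genes that fell in the combined table gave 0.85 (IL1RL1), 0.60 (PHC2), 1.34 (RPL22L1), 1.36 (AC093616.4) and 0.73 (ELP3), and MYBL2, which cancelled, gave 0.57. Among cytokine and NF-kB genes the difference was -2.53 for TRAF1, -2.37 for CXCL8, -1.16 for IL6 and -2.70 for TNFAIP3. Other genes that rose with gemcitabine in shCTRL cells gave -3.97 (INHBA), -3.48 (COL3A1), -2.96 (IL7R), -2.32 (RP11-32B5.8), -1.95 (RP11-525K10.3), -2.05 (LMCD1), -1.91 (PPP1R3B), -1.55 (HBEGF), -1.39 (POSTN) and -1.15 (BTG2). Of these, INHBA, COL3A1, RP11-32B5.8, POSTN and BTG2 also rose with the knockdown in untreated cells.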

How the results depend on the processing

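No paired analysis was possible because the count columns carry no label of a sample and every result comes from the authors' deposited tables. For the same reason edgeR and DESeq2 on the counts, the low-count filter, the replicate block and leaving out each replicate were not run. At adjusted p under 0.01, 753 genes added up, 457 cancelled and 601 departed. With changes of at least 1 required, 2371 were called combined, 205 added up, 121 cancelled, the knockdown was left in 1302 and gemcitabine in 265, a single change was not left in 1681 and 462 departed. With the combined change taken as the sum of 2 steps through shCTRL_GEM, gemcitabine was left in 459 and 207 were called only combined. With those steps in place of the single changes, which share shCTRL_GEM with opposite sign, 534 added up and 2265 cancelled. With the 95% interval held within 1.5-fold, 386 cancelled, and with the combined minus both single changes 132 departed. A minimum mean of 50 and centring kept each count within 1.5 times. No called change of a named gene turned its direction, but cancelling genes outnumbered those that added up with the steps, and centring moved the combined calls from 3126 higher and 3219 lower to 3540 and 2812. Across these alternatives the knockdown was left in 54.2% to 70.6% of genes and gemcitabine in 16.1% to 29.5%. Of the named genes, CA9, ORC1, GDF15, AEN, MT-ATP8 and SC5D lost their combined call at 0.01, and MT-TS1, IL7R, ORC1, AEN, MT-ATP8 and SC5D with the 2 steps, where ATF3 gained one, as MT-ND1 did with centring. The departures of 12 named genes, CXCL8, IL6, IL1RL1, PHC2, MTHFD2, MYBL2 and BTG2 among them, passed only without the third table, and 19 passed in both forms.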
